A study of Mus with 17 samples.

Results

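The genes described here are 8 markers of cholangiocytes, the epithelial cells that line the bile ducts: Krt7, Krt19, Epcam, Sox9, Cftr, Pkhd1, Tspan8 and Spint1. They were taken by name from the gene counts of whole liver, 8 of 24937 genes that had a value, and all 8 were found. RNA of whole, snap-frozen liver was sequenced from 17 mice, 1 library each, so p-values measure the spread between mice. For 52 weeks 8 mice ate a western diet and drank fructose water (42 g/L), which the labels give as a way to bring on advanced steatohepatitis. Against them stood 9 mice of like age on standard chow and plain water. Both diets were given to males of C57BL6/JBomTac, an inbred strain for which the labels name no engineered allele, and both groups had no food in the night before they were killed. The question was whether bile duct transcripts differ between livers of the 2 diets, and how far that holds without 2 libraries that carried pancreatic transcripts.

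Cholangiocytes are a small share of liver cells. They modify bile with chloride, bicarbonate and water, and they carry a primary cilium that faces the duct lumen. In chronic liver injury the ducts expand into strings of small, irregular channels, the ductular reaction, which is usually seen beside portal scar. Markers of these cells fall into keratins of simple epithelium (Krt7, Krt19), surface and adhesion proteins (Epcam, Tspan8, Spint1), a transcription factor of duct identity (Sox9) and proteins of the apical membrane and cilium (Cftr, Pkhd1). Most are also made by pancreatic ducts, and several by other epithelia or by mesothelium, the sheet that covers the liver.

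Library totals were 3604212 to 9071908.5 counts. Values are given as CPM, a gene's counts scaled to a common library size with TMM factors, so they compare a gene between livers and not one gene with another. The level that a count of 0 still allows ran from 0.331 to 0.832 CPM over the libraries, for counting error only. Within a diet every 2 libraries differed beyond counting noise: chi-square per degree of freedom was at least 4.71 in 28 western diet pairs and at least 3.77 in 36 chow pairs. Hepatocyte genes were abundant in every library: 9 of them summed to 12366 to 20063 CPM on western diet and to 16043 to 22048 CPM on chow. Cel, a lipase of pancreatic acinar cells, stood at 868 CPM in western diet replicate 5, where the rest of that diet held 2.78 to 7.30 CPM. In chow replicate 2 it stood at 2367 CPM, where the rest of chow held 2.36 to 16.4 CPM. Summed over 25 acinar genes these 2 libraries held 7308 and 24556 CPM, while the others held 208 to 437 CPM on western diet and 198 to 788 CPM on chow.

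Bile duct transcripts were higher on western diet. Of the 8 markers 7 rose, by 1.69-fold (Sox9) to 8.50-fold (Cftr), and Spint1 did not pass (edgeR's quasi-likelihood test, adjusted p under 0.05 over 13204 genes). Across all tested genes 24.8% rose and 48.4% changed in either direction, so calls were frequent in this comparison. The diets did not overlap in 3 of the 8 (Cftr, Pkhd1 and Tspan8), all higher on western diet, whereas 7.01% of all tested genes lay wholly above chow and 5.03% wholly below. The median log2 difference of the 8 markers was 1.40, beside −0.0091 over all genes. All 8 passed the filter on low counts, which asked for about 1.503 CPM in at least 8 libraries; Epcam, Sox9 and Pkhd1 reached it on chow alone, and the other 5 needed western diet libraries, so for those 5 a place among the tested genes is itself tied to the diet. In whole liver more duct cells, more transcript per duct cell and transcript from other cells cannot be told apart.

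**Figure D1:**
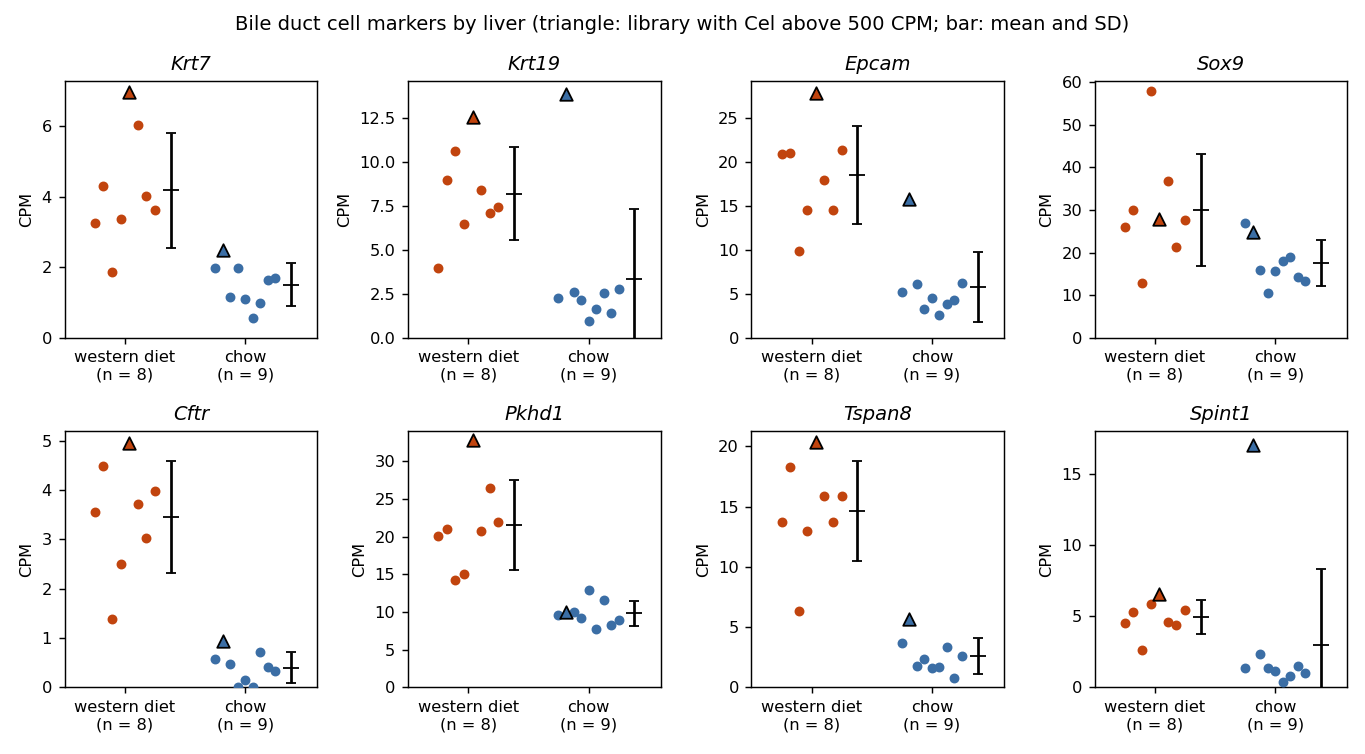
CPM of each bile duct cell marker in every liver, western diet (red, n = 8) left of chow (blue, n = 9), with the mean and SD as a black bar (cut at 0 for chow Krt19 and Spint1) and triangles for the 2 libraries with Cel above 500 CPM. In Cftr, Pkhd1 and Tspan8 the diets do not overlap; in Krt19, Epcam and Spint1 the chow triangle, at 13.8, 15.8 and 17.04 CPM, lies far above the other chow livers.

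Krt7, a type II keratin that builds the intermediate filaments of duct cells, was at 1.86, 3.82 and 6.97 CPM (lowest, median and highest of 8) on western diet, against 0.546, 1.63 and 2.49 CPM (of 9) on chow. In 7 of the 8 western diet livers it exceeded every chow liver, and western diet replicate 3 lay below 3 chow livers. The means were 4.18 ± 1.62 CPM on western diet and 1.51 ± 0.605 CPM on chow (SD), 2.84-fold higher (95% interval 1.93 to 4.19, edgeR adjusted p = 0.000126).

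Krt19, a type I keratin and the marker most used to count duct cells in tissue, was at 3.97, 7.90 and 12.5 CPM on western diet, against 0.944, 2.27 and 13.8 CPM on chow. The highest chow value was that of chow replicate 2, and it exceeded every western diet liver; the next chow liver was at 2.77 CPM, below every western diet liver. It rose 2.44-fold (1.35 to 4.42, edgeR adjusted p = 0.0146), with 8.17 ± 2.62 CPM on western diet and 3.35 ± 3.98 CPM on chow. Without the 2 libraries with Cel above 500 CPM the means were 7.55 ± 2.09 CPM on western diet (SD, n = 7) and 2.04 ± 0.642 CPM on chow (SD, n = 8). The rise was then 3.68-fold (edgeR adjusted p = 1.39e-06).

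Epcam, a homophilic adhesion molecule of epithelia that adult hepatocytes largely lack, was at 9.85, 19.4 and 27.9 CPM on western diet, against 2.59, 4.49 and 15.8 CPM on chow. Chow replicate 2 again held the highest chow value, and it lay above 3 western diet livers; the other chow livers reached at most 6.18 CPM and did not overlap with western diet. The rise was 3.22-fold (2.11 to 4.92, edgeR adjusted p = 0.00012), with means of 18.5 ± 5.56 CPM on western diet and 5.75 ± 3.95 CPM on chow. Without the 2 libraries it was 3.84-fold (edgeR adjusted p = 2.87e-07).

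Tspan8, a tetraspanin that organises membrane proteins at the cell surface, was at 6.32, 14.8 and 20.3 CPM on western diet, against 0.814, 2.33 and 5.68 CPM on chow. The diets did not overlap, although western diet replicate 3, the lowest of its diet, came close to chow replicate 2, the highest of chow. It rose 5.55-fold (3.78 to 8.14, edgeR adjusted p = 4.87e-07), with 14.6 ± 4.18 CPM on western diet and 2.61 ± 1.46 CPM on chow. By size of the rise it ranked 71 among all genes that rose.

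Spint1, a membrane-bound inhibitor of serine proteases such as matriptase and of the activator of hepatocyte growth factor, was at 2.60, 4.96 and 6.56 CPM on western diet, against 0.410, 1.35 and 17.04 CPM on chow. Here 1 liver decided the call: chow replicate 2 held 17.04 CPM, while the other 8 chow livers held 0.410 to 2.32 CPM, below every western diet liver. Over all libraries the fold was 1.62 (0.709 to 3.70, edgeR adjusted p = 0.329), with 4.91 ± 1.19 CPM on western diet and 3.0004 ± 5.29 CPM on chow. Without the 2 libraries with Cel above 500 CPM the means were 4.68 ± 1.07 CPM on western diet and 1.25 ± 0.561 CPM on chow, and Spint1 rose 3.73-fold (edgeR adjusted p = 6.37e-06). An exact two-sided permutation test of its mean log2(CPM + 0.5) over all 17 libraries gave an unadjusted p = 0.0124, at a difference of 1.29. The unadjusted p of edgeR's test was 0.236, at a log2 difference of 0.695. With all libraries Spint1 passed with DESeq2, which replaced the count of chow replicate 2 as an outlier, and with limma-voom, at log2 differences of 1.74 and 1.605.

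Sox9, the transcription factor that marks the duct plate of the embryo and the adult ducts, and also hepatocytes near the portal tract and injured hepatocytes, was at 12.9, 27.7 and 57.9 CPM on western diet, against 10.4, 15.8 and 27.0 CPM on chow. The diets overlapped: 5 western diet livers exceeded every chow liver, while western diet replicate 3 lay below 8 of the 9 chow livers. The highest value was that of western diet replicate 4. Sox9 rose 1.69-fold (1.20 to 2.38, edgeR adjusted p = 0.0124), with 30.04 ± 13.2 CPM on western diet and 17.6 ± 5.36 CPM on chow.

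Cftr, the chloride channel of the apical membrane that drives secretion of bicarbonate into bile, was at 1.39, 3.63 and 4.95 CPM on western diet, against 0, 0.407 and 0.934 CPM on chow. It was close to the detection limit on chow, with 0 to 6.5 counts per library and none in 2 libraries, while western diet libraries held 7.5 to 43 counts. The diets did not overlap. The means were 3.45 ± 1.13 CPM on western diet and 0.401 ± 0.318 CPM on chow, 8.50-fold higher (4.98 to 14.5, edgeR adjusted p = 1.45e-06). It was not tested without the 2 libraries with Cel above 500 CPM unless the low count filter was also left out; the fold was then 9.32 (edgeR adjusted p = 6.66e-07).

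Pkhd1, which encodes fibrocystin, a large protein of the cilium whose loss causes cystic bile ducts and kidneys, was at 14.2, 20.9 and 32.8 CPM on western diet, against 7.72, 9.57 and 13.0 CPM on chow. It had the smallest spread of the 8 on chow, with a coefficient of variation of 16.7%, and the diets did not overlap. The means were 21.6 ± 5.96 CPM on western diet and 9.82 ± 1.64 CPM on chow, 2.21-fold higher (1.78 to 2.73, edgeR adjusted p = 3.84e-06).

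**Figure D2:**
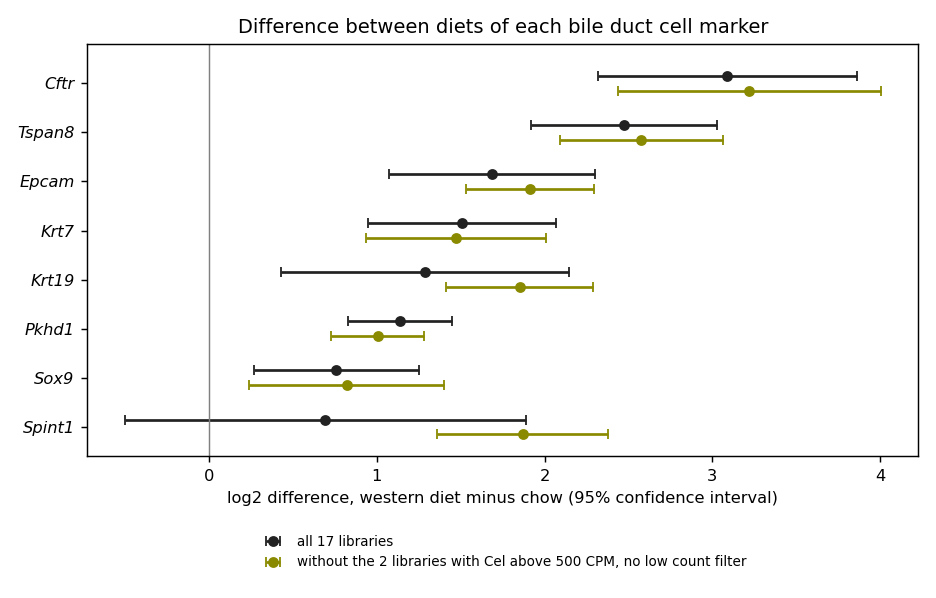
Log2 difference of each marker, western diet minus chow, with its 95% confidence interval from the edgeR fit, for all 17 libraries (black) and without the 2 libraries with Cel above 500 CPM and without a low count filter (olive). The intervals of Spint1, Krt19 and Epcam narrow and move up without those libraries, Spint1 going over to 1.36 to 2.38, while Cftr, Tspan8, Krt7, Pkhd1 and Sox9 move little.

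The 2 libraries with pancreatic transcripts stood high in most of the markers. In chow replicate 2 Spint1 was at 13.7 times the mean of the other chow livers, Krt19 at 6.79, Epcam at 3.51, Cftr at 2.80, Tspan8 at 2.56, Krt7 at 1.80, Sox9 at 1.48 and Pkhd1 at 1.02 times. It was the highest chow liver in 6 of the 8. In western diet replicate 5 the excess over the other western diet livers was smaller, 1.40 to 1.84 times in 7 markers, of which it was the highest liver in each, and 0.920 times in Sox9. Without both libraries all 7 markers that were then tested rose, as did 24.2% of all genes. The diets did not overlap in 5 of those 7, whereas 8.71% of all genes lay wholly above chow. Western diet replicate 5 also held 188 CPM summed over 8 B cell genes, where the rest of that diet held 25.1 to 72.4 CPM. The part of pancreatic tissue in the marker values of these libraries was not tested. Without them the rises of Krt19, Epcam, Sox9 and Tspan8 were larger than with them, while the log2 differences were 1.502 in Krt7 and 1.03 in Pkhd1, in place of 1.51 and 1.14.

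**Figure D3:**
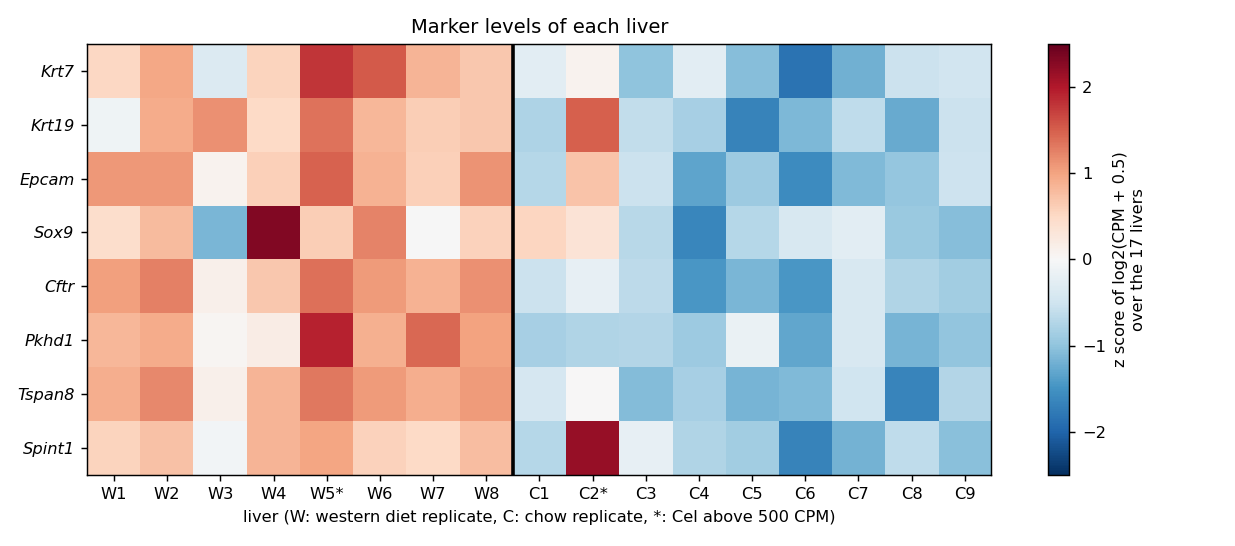
Level of each marker in each liver as a z score of log2(CPM + 0.5) over the 17 livers, western diet (W1 to W8) left of chow (C1 to C9), with an asterisk on the 2 libraries with Cel above 500 CPM. In W3 the lowest z is that of Sox9 (−1.15) and the highest that of Krt19 (1.14), W5 is dark red in most rows, and C2 is red in Krt19, Epcam and Spint1.

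Livers on western diet differed among themselves, with 1 liver low in most markers but not in Krt19. Western diet replicate 3 was the lowest of its diet in 7 of the 8 markers, at 0.373 (Cftr) to 0.629 (Pkhd1) times the mean of the other western diet livers. Its Krt19 was not low: at 10.6 CPM it was 1.35 times that mean and the second highest of the diet. Western diet replicate 1 was instead the lowest in Krt19. The coefficient of variation on western diet was 24.3% (Spint1) to 43.9% (Sox9). Deviations of the livers from their diet mean (log2 CPM, 17 livers) were positively correlated in all 28 pairs of markers, with Pearson's r of 0.0399 to 0.866 and a median of 0.55. Without the 2 libraries with Cel above 500 CPM the median was 0.382 and 24 of 28 pairs were positive. The highest was then that of Epcam and Cftr (0.78), and the lowest that of Krt19 and Pkhd1 (−0.21). All negative pairs held Krt19, whose highest r with another marker was then 0.22 (Tspan8). With all 17 livers the r of Krt19 with the other markers ran from 0.0766 (Pkhd1) to 0.755 (Spint1). These correlations take the livers of both diets together. These values are descriptions over libraries that share their depth and scaling.

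The markers did not rise by equal amounts. For each of the 28 pairs the log2 ratio of the 2 genes within a liver, in which library scaling largely cancels, was compared between diets by an exact two-sided permutation test over all 24310 labellings. In 11 pairs it differed at an adjusted p under 0.05 over the 28 pairs, and 10 of these held Tspan8 or Cftr. Each marker stands in 7 of the 28 pairs, and Tspan8 stood in 6 of the 11 and Cftr in 4. These 2 markers had the largest folds of the 8, so their number of pairs is no result apart from those folds. The log2 ratio of Tspan8 was higher on western diet over Sox9 by 1.66, over Pkhd1 by 1.29 and over Krt7 by 1.15 (exact permutation test, adjusted p = 0.00138 in each). That of Cftr was higher over Sox9 by 1.46 and over Pkhd1 by 1.09 (exact permutation test, both adjusted p = 0.00138), and over Krt7 by 0.95 (adjusted p = 0.00288). Against Krt19, the other keratin, the ratio of Tspan8 was higher by 0.88 (exact permutation test, adjusted p = 0.0328), which passed in 10 of the 17 leave-one-out fits, and that of Cftr by 0.68, which did not pass (adjusted p = 0.117). The 6 pairs of Tspan8 or Cftr over Sox9, Pkhd1 and Krt7 passed whichever 1 of the 17 libraries was left out. So did that of Epcam over Sox9 (1.02, exact permutation test, adjusted p = 0.0215). The ratio of Cftr over Tspan8 moved by −0.20 (adjusted p = 0.478) and that of Krt7 over Krt19 by −0.27 (adjusted p = 0.519), and neither passed. Without the 2 libraries with Cel above 500 CPM 13 pairs passed, 8 of them also among the 11; without chow replicate 2 alone 17 passed, and without western diet replicate 2 alone 7. Values are log2(CPM + 0.5), which understates the ratio changes of Cftr, near 0 on chow. On this scale Krt7 differed by 1.21 and Tspan8 by 2.36, against 1.51 and 2.47 in edgeR. The change of Tspan8 over Krt7 is therefore larger here than the edgeR differences give. For Cftr and Tspan8 this scale also turns the direction, since the edgeR log2 differences were 3.09 in Cftr and 2.47 in Tspan8.

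**Figure D4:**
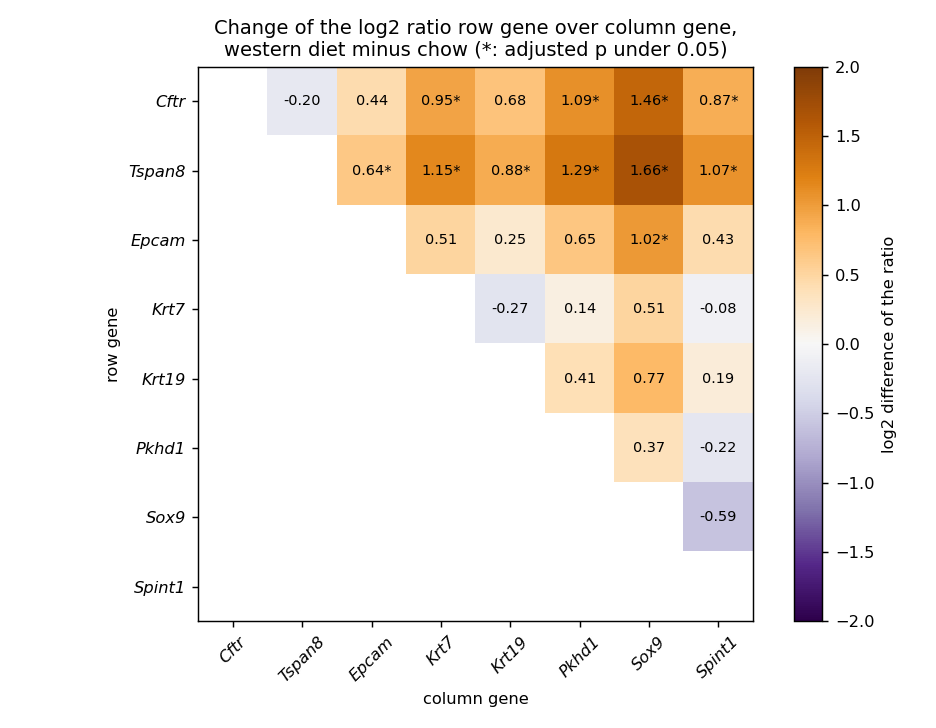
Change of the log2 ratio of the row gene over the column gene, western diet minus chow (n = 8 and 9), for the 28 pairs of markers; an asterisk marks an adjusted p under 0.05 in the exact permutation test. Most asterisks stand in the rows of Tspan8 and Cftr, the 2 markers of largest fold, with the largest change, 1.66, for Tspan8 over Sox9.

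Scar and ductular reaction are described together in liver disease, so each marker was compared with Col1a1, the main collagen of scar, over the livers of each diet. Col1a1 itself rose 3.38-fold (89.4 ± 36.1 CPM on western diet and 26.6 ± 5.59 CPM on chow, edgeR adjusted p = 7.06e-06). None of the 16 relations passed after adjustment, and 5 had an unadjusted p of Pearson's r under 0.05. On western diet (n = 8) Pearson's r was highest in Tspan8 (Pearson's r = 0.886, exact permutation p = 0.0104, adjusted p = 0.0833; Spearman's rho = 0.786, exact p = 0.0279, adjusted p = 0.147). Cftr had the higher rho and the smaller p (r = 0.877, exact p = 0.00794, adjusted p = 0.0833; rho = 0.857, exact p = 0.0107, adjusted p = 0.147), whereas in Krt19 r was −0.0227 (rho = 0.262, exact p = 0.957 for r, adjusted p = 0.957). Without the 2 livers farthest from the median Col1a1 (n = 6) r was 0.488 in Tspan8 and 0.527 in Cftr. Leaving them out also narrows the range of Col1a1, so it cannot tell how far these relations rest on those livers. Without western diet replicate 5 (n = 7) both passed, with r of 0.922 in Tspan8 and 0.915 in Cftr (exact permutation test, both adjusted p = 0.0476). On chow (n = 9) r ran from −0.15 (Pkhd1) to 0.684 (Cftr, exact p = 0.0471, adjusted p = 0.151). Without the 2 farthest chow livers (n = 7) it was larger in several markers, at 0.914 in Tspan8 in place of 0.167, 0.661 in Sox9 in place of 0.287 and 0.631 in Krt19 in place of 0.333.

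Among 13021 tested genes of average log2 CPM of at least 1, those whose deviations from the diet means over the 17 livers were most like each marker were listed by Pearson's r, as a description with no test. For the mean z score of the 8 markers they were Sparcl1 (0.945), a matrix protein of the Sparc family, Bcam (0.928), a laminin receptor of epithelia, and Ltbp3 (0.916), which binds latent TGF-beta. Krt7 was most like Adam33 (0.935), Rbms2 (0.907) and Egflam (0.895), and the r of these was 0.953, 0.875 and 0.893 without the 2 libraries with Cel above 500 CPM. Epcam was most like Fxyd3 (0.91), Slc12a8 (0.886) and St14 (0.886), a membrane serine protease. Cftr was most like Dagla (0.873), Lynx1 (0.853) and Htra1 (0.849). Tspan8 was most like Col5a1 (0.862), Sh3rf1 (0.862) and Bcam (0.855), Sox9 most like Clca3a1 (0.848), Cyb561 (0.833) and Lrrc59 (0.832), and Pkhd1 most like Ift74 (0.809), Gja5 (0.78) and Thrsp (0.772). The genes most like Krt19 (Slc7a8, Fxyd6 and Ptpn13, 0.878 to 0.893) and Spint1 (Chst2, Slc39a5 and Slc12a8, 0.911 to 0.923) rested on the 2 libraries, since without these r was 0.442 to 0.533 for Krt19 and 0.369 to 0.536 for Spint1.

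Further bile duct cell markers, several of which hepatocytes also make, rose less evenly. Of 23 tested genes of the list 12 rose, 2 fell and 9 did not pass, with a median log2 difference of 0.52. For this and the further lists, the shares over all tested genes were 24.8% that rose and 23.6% that fell. The phospholipid-binding annexins Anxa5 (2.66-fold, 342 ± 52.1 CPM on western diet and 129 ± 19.5 CPM on chow, edgeR adjusted p = 3.76e-09) and Anxa4 (1.56-fold) rose without overlap of the diets. The 2 most abundant genes of the list, the chaperone Clu and the copper carrier Cp, did not pass (log2 differences 0.14 ± 0.119 and 0.19 ± 0.0997, ± SE), and both are made by hepatocytes. Without the 2 libraries with Cel above 500 CPM 14 of 22 rose. Chosen after their values were seen, Muc1, a mucin of the apical surface, had a log2 difference of 0.09 ± 0.713 with all libraries and rose by 1.90 without the 2. Itgb4 and Krt23, and the junction gene Cldn8, also passed without the 2 libraries and not with them (log2 differences without them 0.87, 0.80 and 1.21).

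**Figure D5:**
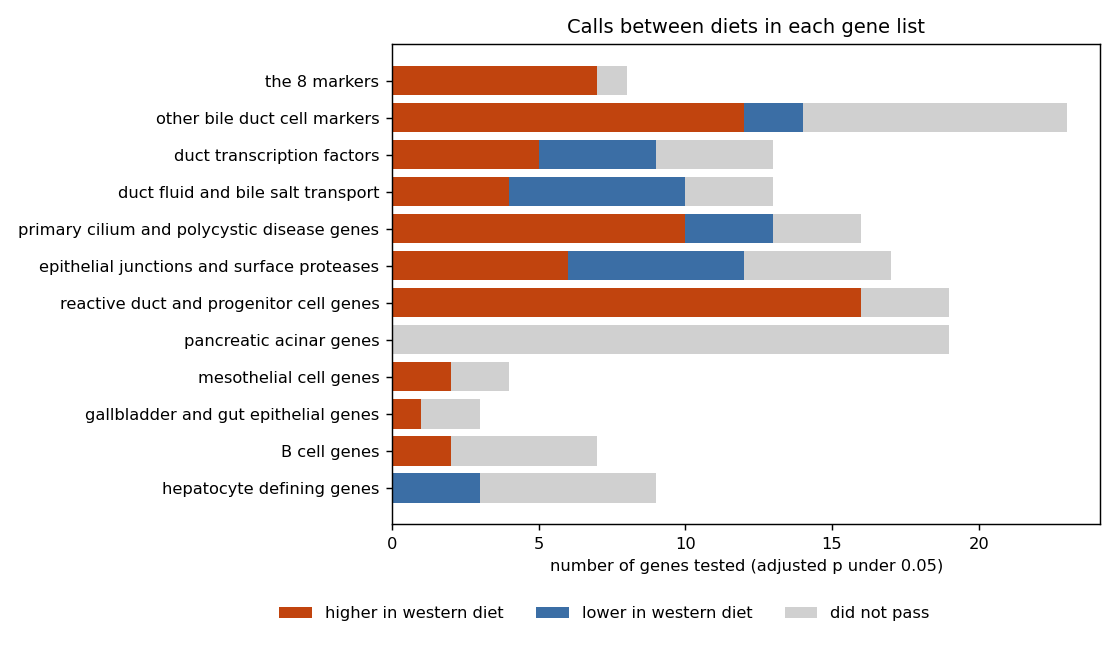
Number of tested genes of each list that were higher (red), lower (blue) or did not pass (grey) on western diet against chow at an adjusted p under 0.05. In the list of reactive duct and progenitor cell genes, several of which other liver cells also make, 16 of 19 rose. Junction and transport genes split between rises and falls, and none of 19 pancreatic acinar genes passed. Of all tested genes 24.8% were higher and 23.6% lower.

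Of 19 tested genes of the reactive duct and of liver progenitor cells 16 rose, none fell and 3 did not pass. Across all tested genes 24.8% rose. The median log2 difference of the list was 1.12. Genes of this and the other lists that are low on chow, among them Cldn4, could reach the low count filter only through western diet libraries. For those, as for 5 of the 8 markers, a place among the tested genes is itself tied to the diet. Osteopontin (Spp1), secreted by duct cells and also by macrophages, rose 4.44-fold (333 ± 82.6 CPM on western diet and 75.0 ± 11.7 CPM on chow, edgeR adjusted p = 5.18e-09). Tnfsf12, the cytokine TWEAK that stimulates progenitor cells in mouse liver, rose 2.32-fold (37.0 ± 5.29 CPM on western diet and 15.96 ± 3.80 CPM on chow, edgeR adjusted p = 3.92e-07). Notch2, the receptor needed for duct formation, did not pass (log2 difference −0.19 ± 0.092). Another 6 genes of the list did not reach the low count filter. Several of these genes are also made by other liver cells, and which cells gave the rise was not tested.

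Cilium and polycystic disease genes moved both ways: 10 of 16 rose, 3 fell and 3 did not pass (median log2 difference 0.33). Bicc1, an RNA-binding protein whose loss causes cysts in mice, rose 3.37-fold (44.9 ± 14.2 CPM on western diet and 13.4 ± 1.84 CPM on chow, edgeR adjusted p = 7.96e-08), and Dcdc2a, a microtubule-binding protein of the cilium, rose 2.88-fold (22.0 ± 6.34 CPM on western diet and 7.60 ± 1.46 CPM on chow). Neither overlapped between the diets. Ganab, Sec63 and Prkcsh, the last named after its values were seen, encode general proteins of the endoplasmic reticulum and fell by 0.31, 0.29 and 0.19 in log2. Prkcsh did not pass without the 2 libraries with Cel above 500 CPM (adjusted p = 0.0789).

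Transcription factors of the duct split as well. Of 13 tested 5 rose, 4 fell and 4 did not pass. Sox4, which acts with Sox9 in duct development in mice, rose 3.84-fold (36.8 ± 6.50 CPM on western diet and 9.60 ± 2.01 CPM on chow, edgeR adjusted p = 1.14e-09), and the epithelial factor Ehf rose 3.34-fold (9.26 ± 3.76 CPM on western diet and 2.81 ± 1.07 CPM on chow). Yap1, the coactivator of the Hippo pathway, was 1.29-fold lower (131 ± 11.3 CPM on western diet and 168 ± 9.79 CPM on chow, edgeR adjusted p = 4.87e-05), and Onecut2 did not pass (log2 difference −0.092 ± 0.0902).

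Transporters of duct fluid and bile salts had 4 rises, 6 falls and 3 that did not pass among 13 tested. Carbonic anhydrase Car2 rose 2.82-fold (20.3 ± 4.005 CPM on western diet and 7.12 ± 1.16 CPM on chow, edgeR adjusted p = 2.88e-08) and the glucose carrier Slc5a1 3.09-fold. The bicarbonate carrier Slc4a4 was 1.24-fold lower and the exporter Abcc3 1.31-fold lower, both abundant and also made by hepatocytes. The remaining calls of the list were named after their values were seen. Aqp4 was 1.95-fold, Aqp1 1.47-fold, P2ry2 1.40-fold and Slc4a2 1.19-fold lower, while Kcnn4 rose 2.78-fold and Slc10a2 2.02-fold. Which cells gave the falls was not tested. Junction and surface protease genes had 6 rises, 6 falls and 5 that did not pass among 17 tested. Claudin Cldn4 rose 5.59-fold (3.17 ± 1.17 CPM on western diet and 0.548 ± 0.488 CPM on chow), whereas Esrp2, a splicing regulator of epithelia, was 1.55-fold lower (119 ± 12.8 CPM on western diet and 184 ± 14.2 CPM on chow, edgeR adjusted p = 5.71e-07), Dsp 1.25-fold and Dsg2 1.18-fold lower. When libraries were scaled by their totals with no TMM factor, the median of all genes moved to 0.12, and the splits were 4 rises and 3 falls for transport and 7 rises and 2 falls for junctions.

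Markers of other tissues that share these genes were set beside the rises. None of 19 tested pancreatic acinar genes passed edgeR's test with all libraries, and 0 had an unadjusted p under 0.05. DESeq2 called 1 and limma-voom 0. Without western diet replicate 5 16 were called lower, and without chow replicate 2 alone 2 were called higher. Ctrb1, a digestive protease, had a log2 difference of −1.39 (edgeR adjusted p = 0.277), and Cel was at 113 ± 305 CPM on western diet and 270 ± 787 CPM on chow. Of 9 islet genes none was tested. Among 4 tested mesothelial genes Wt1 rose 2.69-fold and Gpm6a 2.01-fold, while the mesothelial surface genes Msln and Upk3b, chosen after their values were seen, did not pass (log2 differences −0.73 ± 0.337 and −0.44 ± 0.405); summed over 9 genes the list held 18.1 to 39.9 CPM on western diet and 8.42 to 43.8 CPM on chow. Of 3 tested gut and gallbladder genes Tff3, a trefoil peptide, rose 4.67-fold, and Fabp2 and Tff2 did not pass (log2 differences 0.12 ± 0.0896 and −1.77 ± 1.05); the gut factor Cdx2 had no count in any library. Of 7 B cell genes Bank1 and Fcmr rose (log2 differences 0.83 and 1.29), Cd79a did not pass (0.70), and none passed without the 2 libraries with Cel above 500 CPM, where 1 had an unadjusted p under 0.05. Hepatocyte genes did not rise: Alb and Hnf4a were both 1.31-fold lower, Apob did not pass (log2 difference −0.29 ± 0.157), and 3 of 9 fell in all. The part of mesothelium and gut epithelium in the rises of the 8 markers was not tested.

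On the mouse assembly mm10 (GRCm38), each span covering exons and introns, Krt7 lies on chromosome 15, 101412403 to 101427806, and Krt19 on chromosome 11, 100140810 to 100145926. Epcam lies on chromosome 17, 87635979 to 87651127, Sox9 on chromosome 11, 112782210 to 112787757, and Cftr on chromosome 6, 18170687 to 18322770. Pkhd1 lies on chromosome 1, 20057779 to 20618082, Tspan8 on chromosome 10, 115816817 to 115849893, and Spint1 on chromosome 2, 119237360 to 119249535.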

How the data were processed

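Gene counts of whole liver were analysed for 17 mice, 8 on western diet and 9 on chow by the treatment label, although another label field names western diet in all 17. The authors deposited expected counts by gene symbol, in steps of 0.5, not scaled between libraries (29.4% to 33.7% of values in a library were not whole). The tools were HOMER, FastQC, MultiQC and STAR 2.4.1c with build mm10, per the submitters' processing notes. Their options, the strand setting and the annotation release: not given in the sources used here. Reads of genes that overlap may therefore be mixed. Of 24940 genes 3 had no value. Counts were rounded, filtered with filterByExpr and tested with edgeR 4.0.16 (TMM, robust glmQLFit, glmQLFTest, diet as the design, R 4.3.3), with Benjamini-Hochberg adjustment over 13204 genes; SE was derived from each coefficient and its F statistic. Alternatives were DESeq2 1.42.0, limma-voom (limma 3.58.1), RLE factors, library size alone, other low count filters, Cel as a covariate, no Cel-rich libraries and 1 library left out at a time. On drawn counts of 13204 genes, 176 of 200 genes changed 2-fold were called, and 6 unchanged ones. Those draws held no Cel-rich library and a far smaller share of changed genes than was called here. The figures therefore check the fit and give no error rate for these data. Permutations used Python 3.11.15, numpy 2.4.6 and scipy 1.17.1. Replicate numbers follow the order of the labels and pair no mice.

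The 8 markers and 12 further lists came from general knowledge of the cells, with earlier results of these data known. Of each further list the 2 most abundant tested genes and the 2 of smallest p among those past the threshold were named; other names were picked with their values known. A gene that this rule names is not reported here. The 2 genes of the lists that these files lack under the symbols used were not analysed here. No sequence was used. Gene positions are those of RefSeq on GRCm38.p6.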

Additional observations from a re-analysis of the deposited data

Results flagged for a closer look

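In chow replicate 2, 3 of the 8 markers stood apart from the other 8 chow livers by a gap larger than Dixon's 95% critical value, a limit that chance passes in about 1 of 20 groups; 16 groups of values were examined. Krt19 was at 13.8 CPM there, where the next chow liver was at 2.77 CPM. Epcam was at 15.8 CPM, with the next at 6.18 CPM. Spint1 was at 17.04 CPM, with the next at 2.32 CPM. The same library held 2367 CPM of Cel and 156 CPM summed over 9 islet genes, against at most 3.36 CPM of the islet genes in the other chow livers. No western diet liver stood apart in this way in any of the 8 markers.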

How the results depend on the processing

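Of the 8 markers 7 kept their rise under every alternative in which they were tested; Cftr reached the low count filter in 8 of 17 fits with a single library removed. Spint1 passed without the 2 libraries with Cel above 500 CPM (log2 difference 1.90; 1.87 with no low count filter as well, chosen after seeing the data), with Cel as a covariate (1.53), with limma-voom (1.605) and with DESeq2 (1.74). Over the leave-one-out fits it ran from 0.54 to 1.97 and passed only without chow replicate 2. Between 6 and 7 markers were called in those fits. The number of pairs with a changed ratio ran from 7 to 17 over them, and 2 relations with Col1a1 passed without the Cel-rich library of each diet, in place of none. With library size alone 4485 genes rose and 1615 fell, in place of 3271 and 3122. Of the further lists, called B cell genes ran from none to 4 and called acinar genes from none to 16, the 16 all falls without western diet replicate 5. Lists of gut epithelium, islet and hepatocyte genes also moved by over 1.5 times in single fits, and the other 7 in none. Markers with few counts, Cftr, Krt7 and Spint1 on chow, are limited by depth. No paired analysis was possible because replicate numbers only follow the labels' order and tie no western diet mouse to a chow mouse.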
